A study of Mus musculus with 8 samples.

Results

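The 8 genes described here encode cytokines of the interleukin-1 (IL-1) family, their receptor chains and decoy, and the sensor that sets off their processing. They are Il1a, Il1b, Il18 and Il33 (ligands), Il1r1 and Il1rap (receptor chains), Il18bp (a secreted decoy) and Nlrp3 (an inflammasome sensor). They were taken by exact gene name from tables of 54532 genes, and each of the 8 names matched 1 row. Gene names alone define the set, although it was drawn up with earlier results of these data known. RNA sequencing was performed on retina of rd10 mice, which lose rods and then cones because of a mutation in the rod phosphodiesterase gene Pde6b. All libraries carried the rd10 genotype, so no library of healthy retina enters any comparison. The labels give 4 libraries named sIVs, read from the series title as small intracellular vesicles (libraries 2 to 5). The other 4 are the control group, named PBS and read as phosphate-buffered saline (libraries 1 to 4). Age, dose, route, time of sampling, vesicle source and whether a library is 1 animal are not stated in the labels, so p-values measure only the spread between these libraries.

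IL-1α and IL-1β bind the receptor IL-1R1, which then recruits the accessory chain IL-1RAP. The paired chains act through the adaptor MyD88 and IRAK kinases to release NF-κB. IL-33, a nuclear cytokine released from damaged cells and found in Müller glia in the mouse retina, uses the receptor ST2 with the same accessory chain. IL-18 has its own receptor pair, and IL-18BP binds it before it reaches that pair. NLRP3 assembles a complex that activates caspase-1, which cuts the precursors of IL-1β and IL-18, so the transcripts measured here do not report how much active cytokine was present.

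The start regions of the genes that bind or supply IL-1 are shown because Il1r1 was the 1 gene of the 8 whose sIVs and PBS libraries did not overlap, and Il1a and Il1b encode its ligands. Of the 17725 genes tested, 4.42% had all sIVs libraries above all PBS libraries and 3.36% had them all below. Sequences are the 250 bases before a RefSeq start site on GRCm38.p6, printed 5′ to 3′ on the strand of the gene, with motif matches in capitals. Of the 8 genes, 8 had at least 1 window in the RefSeq table, 11 windows in all.
Il1r1 upstream window, chr1:40224830-40225079, plus strand: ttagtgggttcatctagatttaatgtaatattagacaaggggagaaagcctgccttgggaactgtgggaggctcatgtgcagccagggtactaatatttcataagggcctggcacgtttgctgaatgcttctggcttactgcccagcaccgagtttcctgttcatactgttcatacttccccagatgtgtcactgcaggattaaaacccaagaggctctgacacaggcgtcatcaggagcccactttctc
Il1r1 second upstream window, chr1:40266336-40266585, plus strand: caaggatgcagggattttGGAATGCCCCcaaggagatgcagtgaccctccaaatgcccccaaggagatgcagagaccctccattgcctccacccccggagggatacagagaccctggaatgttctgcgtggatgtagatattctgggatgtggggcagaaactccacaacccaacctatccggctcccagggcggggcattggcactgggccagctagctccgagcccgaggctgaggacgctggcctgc
Il1a upstream window, chr2:129309973-129310222, minus strand: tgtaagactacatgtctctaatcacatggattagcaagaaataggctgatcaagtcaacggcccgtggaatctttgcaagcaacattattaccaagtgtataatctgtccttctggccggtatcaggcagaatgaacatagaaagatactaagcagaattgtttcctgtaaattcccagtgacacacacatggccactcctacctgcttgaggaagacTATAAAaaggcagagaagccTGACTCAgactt
Il1b upstream window, chr2:129371140-129371389, minus strand: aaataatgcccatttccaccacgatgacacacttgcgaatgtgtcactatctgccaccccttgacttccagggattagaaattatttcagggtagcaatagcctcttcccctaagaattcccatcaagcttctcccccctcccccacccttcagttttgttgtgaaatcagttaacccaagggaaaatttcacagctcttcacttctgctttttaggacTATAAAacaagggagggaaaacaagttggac
The capitals in the second Il1r1 window mark a match to the κB consensus on the opposite strand, 232 bases before the start. In the Il1a window they mark TATAAA, 32 bases before the start, and an AP-1 match TGACTCA, 12 bases before it. In the Il1b window they mark TATAAA, 31 bases before the start. No searched motif lay in the first Il1r1 window.

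The search covered 5 motifs. The κB consensus, AP-1 (TGANTCA), the interferon response element ISRE (GAAA, a gap of 2 bases, GAAA) and the STAT site GAS (TTCNNNGAA) were searched on both strands, and TATAAA on the gene's strand within 50 bases of the start. A κB match stood in 7.25% of all 32851 windows of the table, AP-1 in 6.75%, ISRE in 2.98%, GAS in 7.02% and TATAAA in 2.63%. Outside the printed windows, Nlrp3 had a κB match, GGGAACCCCC, 186 bases before a start (chr11:59541319-59541568). The second of the Il33 windows had TATAAA 29 bases before its start (chr19:29945540-29945789). In all, 5 of the 11 windows held a match, and such a match describes letters only.

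Totals ran from 14640235 to 16989737 counts per library. Libraries sIVs 3 and sIVs 4 stood apart from the rest. In them 1501 and 1656 of the 17725 tested genes lay more than 1 log2 unit from their PBS mean. The number was 194 in sIVs 2, 598 in sIVs 5 and 66 to 154 in single PBS libraries. Each PBS library is part of that mean, which holds its number down, so PBS and sIVs numbers are not strictly alike. Pde6b, the gene mutated in rd10, stood at 1649 ± 75.0 CPM (counts scaled to a common library size) in PBS (SD, n = 4) and at 1843, 407, 387.3 and 1561 CPM in sIVs 2 to 5 (edgeR adjusted p = 0.533). By Xist and Y-linked counts, PBS 4 and sIVs 5 were male and the other libraries female. Summed rod markers ran from 33623 to 40046 CPM in PBS and stood at 37957, 8721, 8243 and 30584 CPM in sIVs 2 to 5, so the label retina is borne out in all libraries by abundant rod transcripts. In whole tissue, fewer cells of a type and less RNA per cell cannot be told apart.

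Marker lists of cells that can supply these cytokines also differed between libraries. The 10 microglia markers, all of them detected, summed to 129 to 191 CPM in PBS and to 143, 291, 341 and 109 CPM in sIVs 2 to 5. Among monocyte and macrophage markers (10 of 10 in the table, 6 tested) the sums were 100 to 124 CPM in PBS and 126, 326, 280 and 149 CPM in sIVs. Microglia sums were thus high in sIVs 3 and 4 alone, and below every PBS library in sIVs 5. Astrocyte markers (6 of 6 tested) summed to 168 to 285 CPM in PBS and to 277, 738, 799 and 318 CPM in sIVs. The 10 Müller glia markers summed to 5252 to 6780 CPM in PBS and to 4803, 5580, 6055 and 3570 CPM in sIVs. Neutrophil markers were rare, with sums of 0.321 to 0.486 CPM in PBS and of 0.536, 3.29, 1.71 and 4.36 CPM in sIVs 2 to 5, all above PBS, and Elane was at 0 in all libraries. Lymphocyte markers summed to at most 2.65 CPM in any library, with Ms4a1 at 0 throughout. Of the markers that could be tested 0 passed edgeR, beside 0 of all 17725 genes tested, so that count does not set the markers apart. In addition, the filter on low counts removed all 10 neutrophil markers and all but 1 of the 9 lymphocyte markers. For all these lists, their part in the results on the 8 genes was not tested.

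Across the 8 genes, no difference between sIVs and PBS passed the test, and the genes that could be tested all had higher fitted levels in sIVs. A filter on low counts kept 6 of the 8 (Il1b and Nlrp3 did not pass it). Of these 6, 0 passed edgeR's quasi-likelihood test at a Benjamini-Hochberg adjusted p of 0.05, beside 0% of the 17725 genes tested. At an unadjusted p under 0.05, 3 of 6 were higher in sIVs (Il1a, Il1r1 and Il33) and 0 lower, beside 9.61% of all genes higher and 5.63% lower. All 4 sIVs libraries lay above all 4 PBS libraries for 1 of 6, Il1r1, beside 4.42% of all genes, and below them for 0 of 6, beside 3.36%. The fitted log2 fold change was above 0 for 6 of 6, beside 49% of all genes, and its median was 0.37 over the 6 genes and -0.01 over all genes. Other tools called more. DESeq2 called 1 of the 6 (Il1r1) and 571 genes in all, with 2.84% of all genes called higher. With sample quality weights, limma-voom called 4 (Il1r1, Il1rap, Il18bp and Il33) and 4973 genes in all, with 14% of all genes called higher. Without sIVs 2 the filter kept 7 of the 8 genes, and edgeR called 2 of them higher (Il1r1 and Il33). It called 1331 genes in all there, with 4.83% of the 17999 genes tested called higher. Without sIVs 3 and 4 it called 0 of the 6, beside 0.011% of genes called higher.

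**Figure D1:**
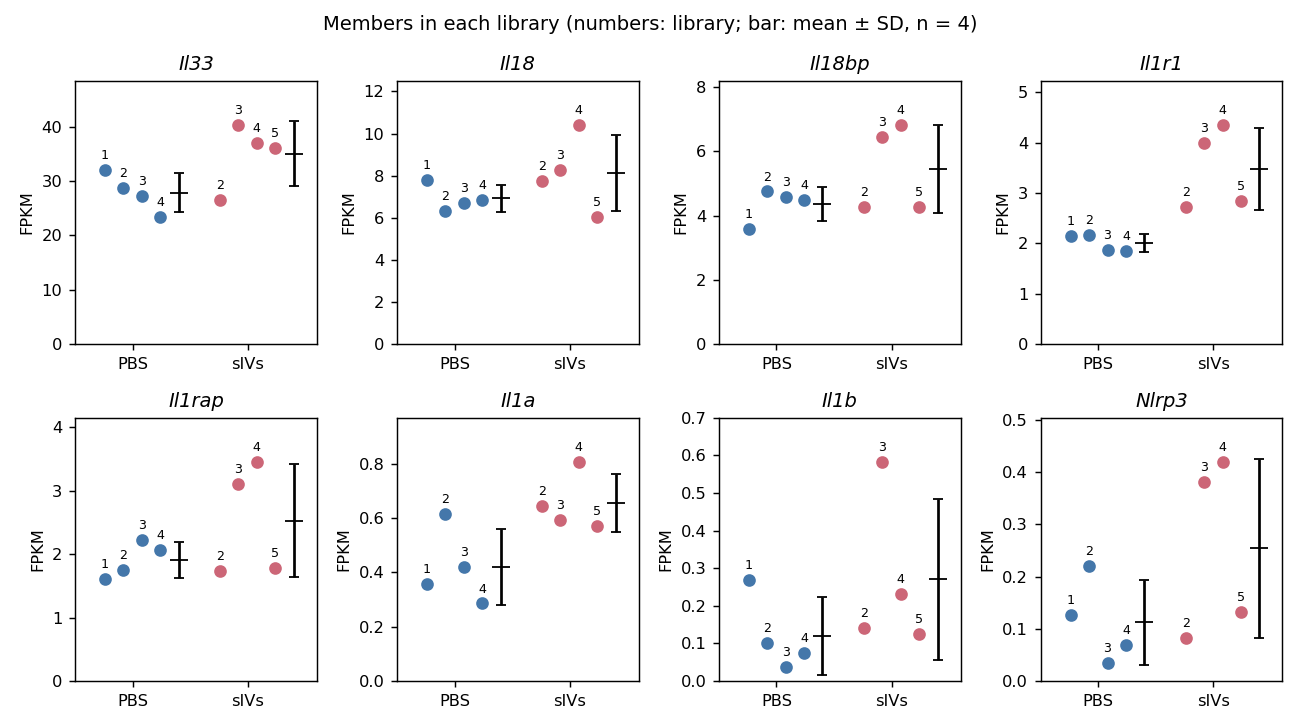
FPKM of the 8 genes in each library, 1 panel per gene with its own axis from 0; points are libraries numbered as in the labels, and bars give the mean ± SD (n = 4). The sIVs libraries of Il1r1, from 2.73 to 4.35 FPKM, all lie above the PBS libraries, whose highest is 2.17, while the other 7 genes overlap between groups. Of all genes tested, 4.42% had every sIVs library above every PBS library in CPM.

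Levels between genes are compared in FPKM, fragment counts scaled to transcript length and library size. In PBS the order from high to low was Il33 (mean 27.9 FPKM), Il18 (6.92), Il18bp (4.36), Il1r1 (2.01), Il1rap (1.91), Il1a (0.420), Il1b (0.120) and Nlrp3 (0.113). Ranges over the 4 PBS libraries overlapped only between the neighbours Il1r1 and Il1rap and between Il1b and Nlrp3. In sIVs the order of means was the same, but ranges overlapped between every pair of neighbours except Il33 with Il18 and Il1rap with Il1a. Il33 made up 75.7% to 84.3% of the summed FPKM of the 4 ligands across the 8 libraries and Il18 14.1% to 22.3%. Il1a held at most 1.84% and Il1b at most 1.17% of that sum.

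Among the ligands, Il33 was the most abundant (ENSMUSG00000024810, chr19:29925114-29960718, plus strand). It stood at 32.0, 28.8, 27.3 and 23.4 FPKM in PBS 1 to 4 and at 26.6, 40.3, 37.1 and 36.2 FPKM in sIVs 2 to 5. Libraries sIVs 3, 4 and 5 lay above every PBS library, while sIVs 2 lay inside the PBS range, so the groups overlapped. The means were 27.9 ± 3.55 FPKM in PBS and 35.0 ± 5.93 FPKM in sIVs (SD, n = 4 each), which gave a fitted log2 fold change of 0.33 (SE 0.14, adjusted p = 0.299 by edgeR). Without sIVs 3 and 4 the log2 fold change was 0.17 (edgeR adjusted p = 0.615), and without sIVs 2 it was 0.44 (edgeR adjusted p = 0.0364). The lowest value of Il33 among the PBS libraries was that of PBS 4, the male one. In the 6 female libraries alone its log2 fold change was 0.24 (edgeR adjusted p = 0.478). The astrocyte marker sums given above stood to PBS as Il33 did, with sIVs 2 inside the PBS range and sIVs 3, 4 and 5 above it. Gfap was the highest gene of the astrocyte list and weighs most in its sum, and which cells expressed Gfap was not tested. Müller glia marker sums, in which Glul was the highest gene and weighs most, were lowest in sIVs 5, where Il33 was above the PBS range.

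Il18, a ligand stored as a precursor, overlapped between groups (ENSMUSG00000039217, chr9:50554827-50581840, plus strand). Its FPKM was 7.79, 6.33, 6.72 and 6.84 in PBS 1 to 4 and 7.74, 8.28, 10.4 and 6.06 in sIVs 2 to 5. Only sIVs 3 and 4 exceeded every PBS library, and sIVs 5 was the lowest of all 8. The means of 6.92 ± 0.622 and 8.12 ± 1.80 FPKM (SD, n = 4 each) gave a log2 fold change of 0.23 (SE 0.17, adjusted p = 0.557 by edgeR), and -0.01 without sIVs 3 and 4.

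Il1a, the ligand that is active without cleavage, was read at 8 to 19 counts in PBS and 19 to 29 in sIVs (ENSMUSG00000027399, chr2:129299610-129309972, minus strand). In FPKM it stood at 0.358, 0.616, 0.421 and 0.286 in PBS 1 to 4 and at 0.645, 0.595, 0.809 and 0.573 in sIVs 2 to 5. Each sIVs library exceeded the PBS mean, and sIVs 2 and 4 exceeded every PBS library, so PBS 2 alone kept the groups from parting. The means of 0.420 ± 0.141 and 0.655 ± 0.107 FPKM (SD, n = 4 each) gave a log2 fold change of 0.63 (SE 0.28, adjusted p = 0.326 by edgeR). Leaving out sIVs 3 and 4 gave 0.52 and leaving out PBS 2 gave 0.88, neither past the threshold. An unnamed transcript model on the opposite strand, Gm14023, had 9 to 23 counts per library and shares 11.2% of the exonic bases of Il1a. No source used here gives the strand setting of the counting, so reads of the shared bases cannot be told apart.

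Il1b, the ligand cut by caspase-1, was too rare for the test (ENSMUSG00000027398, chr2:129364570-129371139, minus strand). Its counts were 8, 3, 1 and 2 in PBS 1 to 4 and 4, 18, 8 and 4 in sIVs 2 to 5, or 0.120 ± 0.103 and 0.270 ± 0.214 FPKM (SD, n = 4 each). Only sIVs 3 lay above every PBS library, and its 18 counts have a 95% Poisson interval of 10.7 to 28.4, which covers counting error only. PBS 1 and sIVs 4 both held 8 counts. In a fit with no filter beyond 1 count in any library, the log2 fold change of Il1b was 1.12 (edgeR adjusted p = 0.594).

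The ligand-binding chain Il1r1 showed the clearest separation of the 8 genes (ENSMUSG00000026072, chr1:40225080-40317257, plus strand; its start regions are printed above). It stood at 2.14, 2.17, 1.87 and 1.85 FPKM in PBS 1 to 4 and at 2.73, 3.99, 4.35 and 2.84 FPKM in sIVs 2 to 5. All 4 sIVs libraries exceeded all 4 PBS libraries, with sIVs 3 and 4 highest and sIVs 2 and 5 closer to PBS. The means of 2.01 ± 0.170 and 3.48 ± 0.816 FPKM (SD, n = 4 each) gave a log2 fold change of 0.79 ± 0.16 (SE), a 1.73-fold higher level (edgeR adjusted p = 0.158). Ranked by p, Il1r1 was gene 85 of the 17725 tested. PBS libraries varied little in it, with a coefficient of variation of 8.47% against 7.22% from counting alone, while sIVs libraries varied by 23.4%.

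The call on Il1r1 depended on the method. DESeq2 gave an adjusted p of 0.00262, limma-voom with sample quality weights 0.00163 and edgeR with no filter 0.0425, all with the same direction. Leaving out sIVs 2, the sIVs library with the lowest Il1r1 level, gave a log2 fold change of 0.89 (edgeR adjusted p = 0.0137). Without sIVs 3 and 4 it was 0.46 (edgeR adjusted p = 0.205), with both remaining sIVs libraries still above all PBS libraries. In female libraries alone it was 0.84 (edgeR adjusted p = 0.330), and 0.79 with sex as a term (edgeR adjusted p = 0.177). Microglia markers in sIVs 2 lay inside the PBS range and in sIVs 5 below it, while Il1r1 was above the PBS range in both. Summed monocyte and macrophage markers exceeded every PBS library in all 4 sIVs libraries, as Il1r1 did, though in sIVs 2 only by 126 against 124 CPM. Fn1 was the highest gene of that list and weighs most in its sum, and only 6 of the 10 markers could be tested. Which cells expressed Fn1 was not tested. Summed neutrophil markers also exceeded every PBS library in all 4 sIVs libraries, at 0.536 CPM in sIVs 2 against at most 0.486 in PBS. These sums rest on very few reads: 9 of the 10 neutrophil markers were at 0 in some library. Endothelial and pericyte markers summed to 441 to 509 CPM in PBS and to 434, 778, 788 and 417 CPM in sIVs 2 to 5, with sIVs 2 and 5 below every PBS library.

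Il1rap, the accessory chain shared by the IL-1 and IL-33 receptors, was high in sIVs 3 and 4 alone (ENSMUSG00000022514, chr16:26581704-26730117, plus strand). Its FPKM was 1.61, 1.75, 2.23 and 2.07 in PBS 1 to 4 and 1.74, 3.11, 3.46 and 1.79 in sIVs 2 to 5. The values in sIVs 2 and 5 lay inside the PBS range, below the PBS mean. The means of 1.91 ± 0.283 and 2.53 ± 0.891 FPKM (SD, n = 4 each) gave a log2 fold change of 0.40 (SE 0.23, adjusted p = 0.443 by edgeR). Without sIVs 3 and 4 the direction turned, to -0.12 (edgeR adjusted p = 0.746). The ratio of Il1rap to Il1r1 within a library was 0.753, 0.804, 1.19 and 1.12 in PBS 1 to 4 and 0.638, 0.780, 0.795 and 0.628 in sIVs 2 to 5. Without PBS 1 the groups would not overlap, and the log2 difference of -0.42 gave an exact two-sided permutation p of 0.114 (0.229 adjusted over 2 ratios), where 70 relabellings allow no p below 0.0286.

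The decoy Il18bp followed a pattern like that of Il1rap (ENSMUSG00000070427, chr7:102014885-102018690, minus strand). It stood at 3.59, 4.76, 4.58 and 4.50 FPKM in PBS 1 to 4 and at 4.28, 6.44, 6.82 and 4.27 FPKM in sIVs 2 to 5. Again sIVs 3 and 4 were above every PBS library and sIVs 2 and 5 inside the PBS range. The means of 4.36 ± 0.522 and 5.45 ± 1.37 FPKM (SD, n = 4 each) gave a log2 fold change of 0.32 (SE 0.18, adjusted p = 0.429 by edgeR), and -0.03 without sIVs 3 and 4. The opposite-strand gene Numa1, at 2723 to 3285 counts per library, shares 2.64% of the exonic bases of Il18bp, so part of the Il18bp count could not be assigned to a strand with what is known of the counting.

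The proportion of decoy to ligand overlapped between groups. The ratio of Il18bp to Il18 was 0.461, 0.752, 0.681 and 0.658 in PBS 1 to 4 and 0.553, 0.778, 0.655 and 0.704 in sIVs 2 to 5. The means were 0.638 ± 0.125 and 0.672 ± 0.0944 (SD, n = 4 each), a log2 difference of 0.09 (exact two-sided permutation p = 0.657). Without PBS 1 the log2 difference was -0.06, on the other side of 0.

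**Figure D2:**
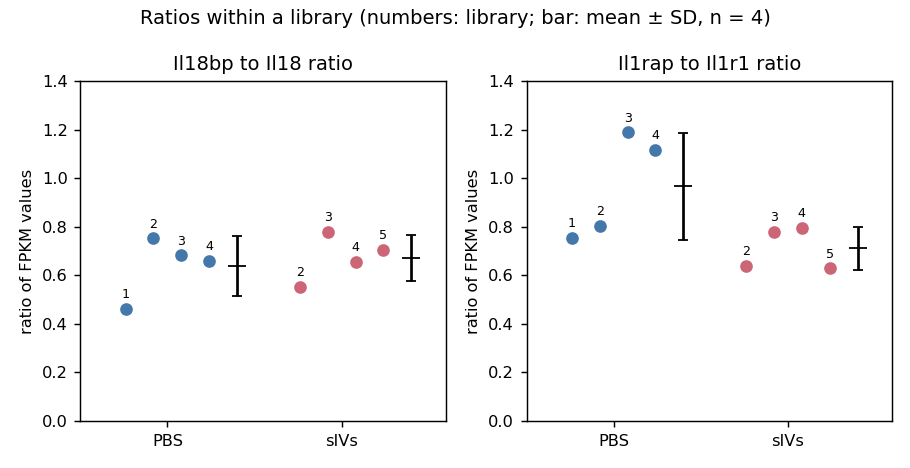
Ratios of FPKM values within each library, Il18bp to Il18 on the left and Il1rap to Il1r1 on the right, both axes from 0; points are numbered libraries and bars give the mean ± SD (n = 4). PBS 3 and 4 hold the highest Il1rap to Il1r1 ratios, 1.19 and 1.12, and the Il18bp to Il18 ratios of the groups lie over each other.

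Nlrp3, the inflammasome sensor, was as rare as Il1b (ENSMUSG00000032691, chr11:59541568-59566956, plus strand). Its counts were 8, 14, 2 and 4 in PBS 1 to 4 and 5, 25, 31 and 9 in sIVs 2 to 5, or 0.113 ± 0.0814 and 0.254 ± 0.171 FPKM (SD, n = 4 each). Both sIVs 3 and sIVs 4 exceeded every PBS library, while sIVs 2 and 5 lay inside the PBS range. The spread among PBS libraries, a coefficient of variation of 72.2%, exceeded the 37.8% that counting alone gives. With no filter beyond 1 count the log2 fold change was 1.15 (edgeR adjusted p = 0.50).

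Seen by library, the genes fell into different patterns. In sIVs 3 and 4 together the mean FPKM exceeded that of sIVs 2 and 5 together for all 8 genes, by the largest ratio for Nlrp3 (0.401 against 0.107), Il1b (0.407 against 0.133) and Il1rap (3.29 against 1.76). The Il1b mean of 0.407 joins 0.584 FPKM in sIVs 3 with 0.231 in sIVs 4, which lay inside the PBS range. For Il1a (0.702 against 0.609) and Il33 (38.7 against 31.4) the ratio was smaller. Across the 8 libraries the log2 CPM of Il1rap and Il18bp had a Pearson r of 0.945, the highest of the 15 pairs among the 6 tested genes, and that of Il1a and Il1rap 0.417, the lowest. These correlations describe 8 libraries that share the contrast of sIVs 3 and 4 with the rest.

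**Figure D3:**
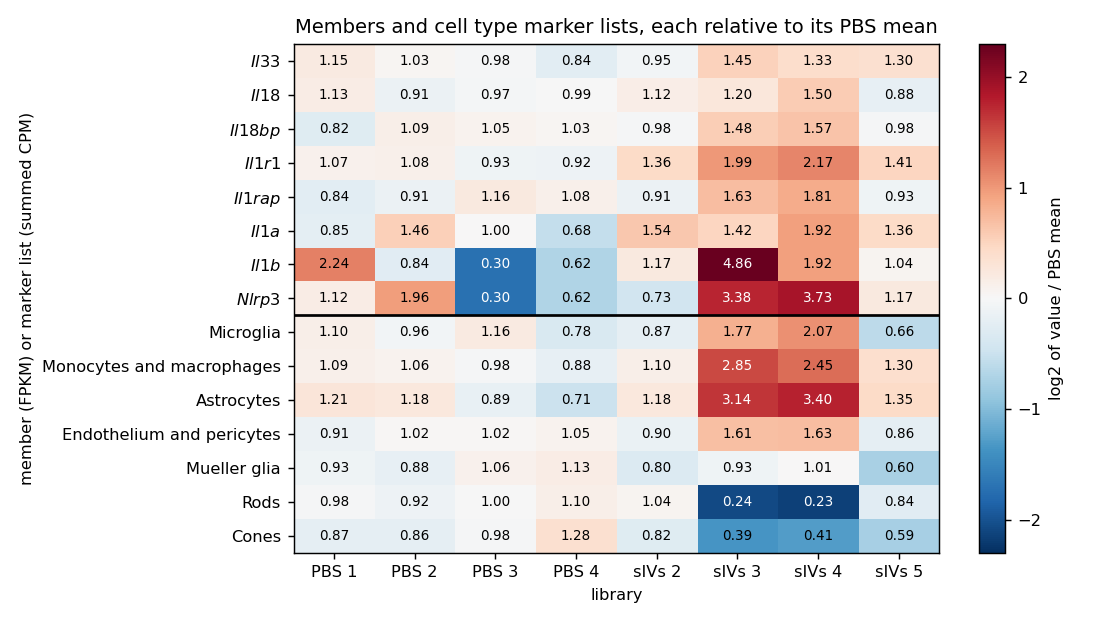
The 8 genes (FPKM) and 7 cell type marker lists (summed CPM) in the 8 libraries, each as a multiple of its PBS mean; the number is the multiple and the colour its log2. Values of Il1rap, Il18bp and Nlrp3 are high in the columns of sIVs 3 and sIVs 4, where microglia, macrophage, astrocyte and endothelial markers are also high and rod and cone markers low, while Il1r1 and Il1a are above 1.3 in all 4 sIVs columns, Il1a with PBS 2 at 1.46.

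Genes of most similar pattern were sought among the 14034 other protein-coding genes averaging 1 CPM or more, by Pearson r of log2 CPM over the 8 libraries. For Il1r1 these were Eef1d (r = 0.994) and Tmco4 (0.993), and for Il1rap Ap2b1 (0.989) and Lasp1 (0.987). Il18bp ran with Pdgfrb (0.987), a pericyte marker, and Dtx4 (0.983), and Il33 with Chil1 (0.982) and Zcchc24 (0.976). For Il18 they were Acp1 (0.967) and Zfp300 (0.958), and for the rarely read Il1a Bsdc1 (0.959) and Htr2b (0.953). With so many candidates and 8 points, such values describe these libraries only.

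Around the 8 genes, 82 other genes of the IL-1 pathway were listed, 80 were in the table and 60 could be tested. Of the 60, 0 passed the edgeR test, 25 were higher and 1 lower in sIVs at an unadjusted p under 0.05, beside 9.61% of all genes higher and 5.63% lower. The median log2 fold change was 0.51 against -0.01 for all genes. All 4 sIVs libraries exceeded all PBS libraries for 10 of the 60, against 4.42% of all genes. DESeq2 called 8 of them, all higher, beside 2.84% of all genes called higher. The counts of the single lists that follow stand beside the same background of 9.61% higher and 5.63% lower at an unadjusted p under 0.05.

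Of 7 other ligands and antagonists, 5 were in the table and none passed the filter. The receptor antagonist Il1rn, which blocks IL-1R1, had counts of 0, 1, 1 and 0 in PBS 1 to 4 and of 5, 30, 41 and 3 in sIVs 2 to 5. It was named after its values were seen. Its groups did not overlap, most of its counts were in sIVs 3 and 4, and with no filter beyond 1 count its log2 fold change was 4.83 (edgeR adjusted p = 0.0443). Il1f10 and Il36a (listed under its older symbol) had 0 counts in every library.

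Other receptors of the family numbered 8, of which 5 were tested, 1 was higher at an unadjusted p under 0.05 and the median log2 fold change was 0.44. Il1rl1, which encodes the IL-33 receptor ST2, stood at 0.901, 0.321, 0.486 and 0.356 CPM in PBS 1 to 4 and at 0.335, 2.61, 1.44 and 1.49 CPM in sIVs 2 to 5. As for Il33 itself, sIVs 3, 4 and 5 lay above every PBS library and sIVs 2 did not (log2 fold change 1.49 ± 0.56 SE, edgeR adjusted p = 0.269). Its log2 fold change was 0.83 without sIVs 3 and 4. Il1rapl1, a synaptic relative of Il1rap, had a log2 fold change of -0.32 (SE 0.25, adjusted p = 0.564 by edgeR), with 2 of 4 sIVs libraries below every PBS library, and -0.83 without sIVs 3 and 4. The receptor chains for IL-18 were nearly absent, Il18r1 with 0 counts in all PBS libraries and 0, 5, 2 and 2 in sIVs 2 to 5, and Il18rap with at most 8 counts in any library.

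Inflammasome and processing genes numbered 17, of which 13 were tested, 4 were higher and 0 lower at an unadjusted p under 0.05, and the median log2 fold change was 0.62. Casp1, the protease that matures IL-1β and IL-18, stood at 0.708, 0.577, 1.18 and 0.356 CPM in PBS 1 to 4 and at 0.603, 3.91, 5.58 and 0.537 CPM in sIVs 2 to 5. It was above PBS in sIVs 3 and 4 alone, as Nlrp3 was, and its log2 fold change of 1.92 (SE 0.76, adjusted p = 0.285 by edgeR) turned to -0.31 without them. Ninj1, which ruptures the membrane of dying cells, had a log2 fold change of 0.60 (SE 0.25, adjusted p = 0.295 by edgeR) and 3 of 4 sIVs libraries above every PBS library. Without sIVs 3 and 4 it was 0.16.

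Downstream of the receptor, all 17 listed signalling genes were tested, 4 were higher and 0 lower at an unadjusted p under 0.05, and the median log2 fold change was 0.04. Myd88, the adaptor of the family's receptors, stood at 13.7, 12.6, 9.30 and 10.96 CPM in PBS 1 to 4 and at 15.5, 23.7, 22.7 and 18.4 CPM in sIVs 2 to 5. Its groups did not overlap, as for Il1r1, and its log2 fold change was 0.79 ± 0.17 (SE, edgeR adjusted p = 0.158), or 0.54 without sIVs 3 and 4. Irak1, a kinase bound by MyD88, had a log2 fold change of 0.52 (SE 0.16, adjusted p = 0.205 by edgeR) with 3 of 4 sIVs libraries above every PBS library, and 0.19 without sIVs 3 and 4.

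NF-κB subunits and feedback genes numbered 11, all tested, with 6 higher and 1 lower (Tnfaip3, log2 fold change -0.76, named after its value was seen) at an unadjusted p under 0.05 and a median log2 fold change of 0.24. The subunit gene Relb stood at 6.31, 5.32, 4.51 and 5.41 CPM in PBS 1 to 4 and at 7.97, 12.7, 10.9 and 12.6 CPM in sIVs 2 to 5. No sIVs library overlapped PBS, and the log2 fold change of 1.03 (SE 0.18, adjusted p = 0.136 by edgeR) was 0.93 without sIVs 3 and 4. Nfkb2, its usual partner, had a log2 fold change of 1.11 (SE 0.28, adjusted p = 0.170 by edgeR) with all sIVs libraries above PBS, and 0.53 without sIVs 3 and 4.

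Genes known to respond to IL-1 numbered 22, of which 14 were tested, 10 were higher and 0 lower at an unadjusted p under 0.05, and the median log2 fold change was 1.16. Saa3, an acute-phase protein gene, stood at 1.48, 1.73, 0.278 and 0.0711 CPM in PBS 1 to 4 and at 3.01, 15.7, 19.3 and 7.52 CPM in sIVs 2 to 5. Each sIVs library exceeded every PBS library (log2 fold change 3.64 ± 0.74 SE, edgeR adjusted p = 0.153). Without sIVs 3 and 4 its log2 fold change was 2.53. The chemokine gene Ccl2 had the smallest p of the pathway, with counts of 16, 7, 4 and 3 in PBS 1 to 4 and of 26, 202, 238 and 107 in sIVs 2 to 5 (log2 fold change 4.06 ± 0.68 SE, edgeR adjusted p = 0.130). The log2 fold change of Ccl2 was 3.01 without sIVs 3 and 4 and 4.71 without PBS 1, the PBS library with most Ccl2. These genes also respond to other cytokines, and which signal acted was not measured.

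**Figure D4:**
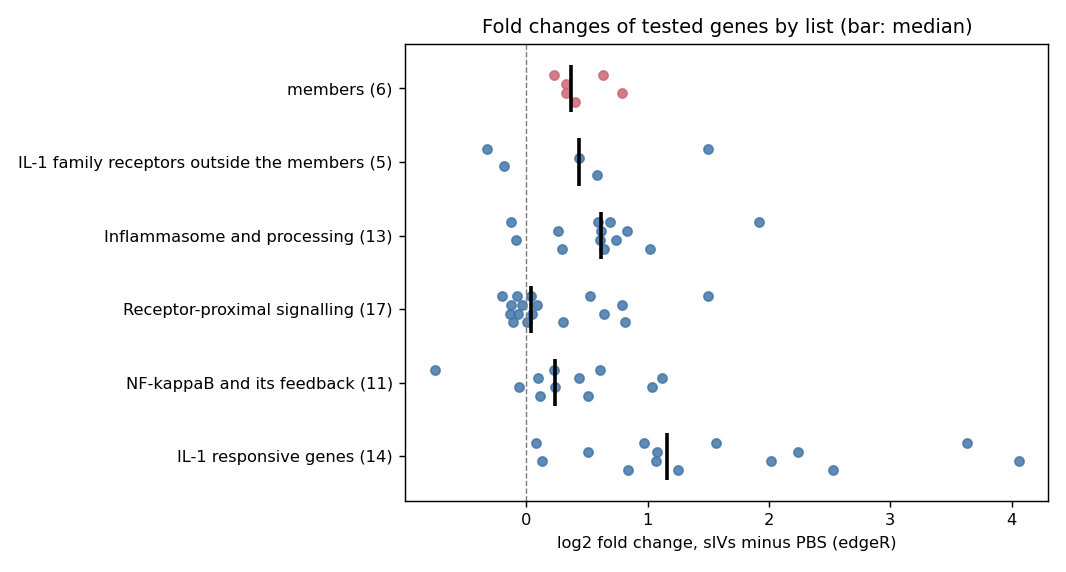
Log2 fold changes (sIVs minus PBS, edgeR) of the tested genes, 1 row per list with the number tested in brackets; points are genes, the vertical bar is the list's median and the row named members holds the 6 tested genes of the 8. All 6 points of that row lie above 0, with a median of 0.37, and the list of IL-1 responsive genes reaches 4.06.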

How the data were processed

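RNA was sequenced from 8 rd10 mouse retina libraries, grouped by title. Per the labels' protocols, poly(A) RNA was made into strand-marked libraries and sequenced paired-end. The submitters' processing notes name mm10. No source used here gives the aligner, counter, annotation or strand setting. The authors deposited unnormalised counts and an FPKM table of the same genes. Dividing each deposited FPKM value by its count per kilobase and library size left 1 constant per library (0.930 to 1.03, within 0.1%), of unstated origin.

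The count test was that of edgeR 4.0.16 (R 4.3.3): filterByExpr on the group (17725 of 54532 genes kept), TMM scaling, glmQLFit and glmQLFTest with the group as the only term, and Benjamini-Hochberg adjustment over all genes kept, threshold 0.05. Standard errors came from the F statistic. CPM used TMM-scaled totals. The 2 ratios were tested by exact permutation. Depth, 14640235 to 16989737 counts per library, leaves Il1b and Nlrp3 at few counts. All pairs of libraries differed by more than sampling noise. The closest pair crossed the groups: PBS 1 with sIVs 2, at a chi-square of 3.65 per gene. From PBS 2, 3 and 4, sIVs 2 stood at 4.74, 5.54 and 12.7, and pairs within PBS ran from 3.84 to 12.7. From sIVs 3, 4 and 5 it stood at 61.5, 74.6 and 13.9.

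Named were the 8 genes, the 2 genes of smallest p in each pathway list, the 2 genes of most similar pattern per tested gene and Pde6b, with Il1rn, Tnfaip3 and a few rare genes named after their values were seen. The genes, pathway lists and marker lists were chosen with earlier results of these data known. Alternatives were DESeq2 1.42.0, limma 3.58.1 on log2(FPKM + 0.1) and log2(FPKM + 1), limma-voom with sample quality weights, other scalings and filters, libraries left out and replicate blocks. Female libraries alone and sex as a term were added after seeing the data. Promoters came from RefSeq on GRCm38.p6.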

Additional observations from a re-analysis of the deposited data

How the results depend on the processing

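Over 21 alternatives for each of the 6 tested genes, direction was kept in 123 of 126 values, and 8 passed 0.05. The 3 that turned came without sIVs 3 and 4: Il1rap -0.12, Il18 -0.0141 and Il18bp -0.0338, where Casp1 also turned (-0.31). For the 10 named pathway genes direction was kept in 206 of 207. They were picked by smallest p in these same libraries, so that count is no independent check. Against 0 genes called with edgeR (2702 at an unadjusted p under 0.05), DESeq2 called 571, no filter 152, limma-voom with sample quality weights 4973, an adjusted p under 0.1 11, and leaving out sIVs 3 and 4 called 3. With a single library left out the count ran from 0 to 1331, the highest without sIVs 2. Of the 8 genes, DESeq2 called 1, no filter 1 and limma-voom 4, and single libraries left out gave 0 to 2. Of the pathway genes these settings called 8, 6 and 33 (30 of the 33 higher), and 0 to 14 (13 of the 14 higher). The log2 Il18bp to Il18 ratio difference was -0.00879 without sIVs 3 and 4 and ran from -0.0602 to 0.179 with single libraries left out. That of Il1rap to Il1r1 ran from -0.534 to -0.314, and without PBS 1 the exact permutation p was 0.0286. PBS 1 was the library that kept the groups from parting, so leaving it out fixed that p at the smallest value relabelling allows. Scaling by library totals moved the median of all genes to 0.07. The cause of these shifts was not tested.

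Whether samples sharing a number were paired could not be settled from these libraries. Deviations from the group means of same-numbered libraries correlated at -0.060 to 0.055 by title number and at -0.075 to 0.098 by biosample number. In neither numbering did every library correlate best with its own number. By title number sIVs 3 did, and by biosample number sIVs 4 (with PBS 3) and sIVs 5 (with PBS 4) did. PBS 4 and sIVs 5, the male libraries, share biosample number 4. Deviations within sIVs include the contrast of sIVs 3 and 4 with sIVs 2 and 5, which limits what these correlations can show. Only title numbers 2, 3 and 4 occur in both groups, so the title block rests on those libraries, without PBS 1 and sIVs 5. With the title number as a replicate block 0 genes were called and Il1r1 had a log2 fold change of 0.88. With the biosample number as a block 0 were called and Il1r1 had 0.77. The Il18bp to Il18 difference under the title block was -0.0861, and with PBS 1 alone left out and no block it was -0.0602.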
